A study of Homo sapiens with 10 samples.

Results

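The KLRC natural killer lectin receptor genes KLRC1, KLRC2 and KLRC3 and their relative KLRK1 were examined in sorted breast cancer cells (BCCs). Every probe set whose platform annotation held 1 of these 4 member genes, alone or among several symbols, was taken, which gave 3 of the 25750 probe sets in the deposited table. The annotation of its 25727 probe sets that are not controls holds 13207 gene symbols in all. These genes were chosen by the differences of their probe sets between the subsets on these same arrays, so that their levels and differences are given as a description without a test. The RNA came from MDA-MB-231, a basal-like human breast cancer cell line. All cells carried pEGFP1-Oct3/4, in which the Oct4A promoter drives green fluorescent protein (GFP), and had been selected with neomycin. Cells with the lowest GFP were the Oct4low BCCs (4 arrays), those between the extremes the Oct4med BCCs (2 arrays) and those with the highest GFP the Oct4hi BCCs (4 arrays). The labels give the gates of the Oct4low and Oct4hi BCCs as 5% of the cells each, and the results text of the paper gives a different gate for Oct4low BCCs. No untransfected or unsorted cells were among the arrays, the fluorescence reports activity of the introduced promoter, and a single cell line was used.

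KLRC1 encodes NKG2A, an inhibitory receptor of natural killer (NK) cells and some T cells, while KLRC2 encodes NKG2C and KLRC3 encodes NKG2E, which lack its inhibitory motifs. These proteins pair with CD94, the product of KLRD1, and CD94 receptors with NKG2A or NKG2C recognize HLA-E loaded with leader peptides of other HLA class I molecules. KLRK1 encodes NKG2D, which signals through the adaptor HCST (DAP10) and binds stress ligands such as MICA, the ULBP proteins and RAET1E on tumour cells. The genes lie together with KLRC4 in the NK gene complex on chromosome 12, and the KLRC copies are near-identical in much of their sequence. In breast cancer these receptors are known mainly from the infiltrating lymphocytes, while the tumour cells present their ligands.

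Because of that similarity, the array did not separate every copy. Probe set 206785_s_at is annotated to KLRC2 and KLRC1, with a KLRC2 transcript as its target, and 1555691_a_at is annotated to KLRK1 and to the read-through gene KLRC4-KLRK1. Probe set 207723_s_at is annotated to KLRC3 alone, although its suffix (_s_at) marks probes that can match several transcripts. A signal on 206785_s_at therefore cannot be assigned to KLRC1 or KLRC2. Of the KLRC copies, the paper's supplementary gene list names KLRC2, with a negative fold change between Oct4hi and Oct4low BCCs. The real-time PCR results shown in the paper include no KLRC copy. For real-time PCR the study designed a separate primer pair for each of the 3 KLRC copies, and these are shown because they name the stretches meant to tell the copies apart, 5' to 3' with no base marked.
KLRC1 forward primer: tccatgggtgacaatgaatg
KLRC1 reverse primer: ctgcaaatgcaaacgcttta
KLRC2 forward primer: tttccccgaatacaagaacg
KLRC2 reverse primer: caccaatccatgaggaaggt
KLRC3 forward primer: catttgcattgtcctgatgg
KLRC3 reverse primer: caggcctgcaaactctcttc

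The start regions of the copies are shown because the probe sets of KLRC1 and KLRC2 and of KLRC3 were both highest in the same subset. In the RefSeq promoter windows (GRCh38.p14, minus strand, 250 bases before to 50 after the start), 2 of the 4 member genes were matched, KLRC3 with 1 window and KLRC1 with 3, of which the farthest upstream is printed. KLRC2 and KLRK1 were not matched, and KLRC4 is added for comparison. Capitals mark bases identical between KLRC3 and KLRC4 in their best local alignment.
KLRC3, chr12:10420546-10420845: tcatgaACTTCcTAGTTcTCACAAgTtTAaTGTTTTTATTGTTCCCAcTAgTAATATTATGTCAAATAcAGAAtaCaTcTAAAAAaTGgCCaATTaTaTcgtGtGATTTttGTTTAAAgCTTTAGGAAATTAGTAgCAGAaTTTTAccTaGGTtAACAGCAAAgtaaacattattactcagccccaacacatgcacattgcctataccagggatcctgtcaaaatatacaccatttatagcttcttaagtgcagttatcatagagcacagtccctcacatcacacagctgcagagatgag
KLRC4, chr12:10409708-10410007: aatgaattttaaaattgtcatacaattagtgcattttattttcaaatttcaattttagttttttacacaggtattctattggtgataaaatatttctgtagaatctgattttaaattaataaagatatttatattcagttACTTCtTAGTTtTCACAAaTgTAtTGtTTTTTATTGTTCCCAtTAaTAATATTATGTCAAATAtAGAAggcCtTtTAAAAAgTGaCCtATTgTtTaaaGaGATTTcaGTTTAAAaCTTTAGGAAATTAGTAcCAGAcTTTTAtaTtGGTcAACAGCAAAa
KLRC1, chr12:10454636-10454935: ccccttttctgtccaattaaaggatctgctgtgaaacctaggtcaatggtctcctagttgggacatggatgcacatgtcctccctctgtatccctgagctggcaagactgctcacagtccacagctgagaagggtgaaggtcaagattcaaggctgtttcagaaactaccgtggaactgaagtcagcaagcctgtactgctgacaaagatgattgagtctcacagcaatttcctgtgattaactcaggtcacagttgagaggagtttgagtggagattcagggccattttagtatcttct

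The windows of KLRC3 and KLRC4 shared 127 identical bases over 159 aligned columns (79.9%), whereas the best local alignment of KLRC3 with the printed KLRC1 window held 19 identical bases over 22 columns. In KLRC4 the shared stretch runs nearly to the end of its window, and in KLRC3 it lies near the upstream end. The windows were rich in A and T, with 65.0% in KLRC3, 77.7% in KLRC4 and 53.0% in KLRC1, against a median of 41.3% over all 35116 windows. The octamer ATGCAAAT, the classical sequence bound by the POU family to which Oct4 belongs, was in none of these windows on either strand, the other KLRC1 windows included, and was in 1.77% of all windows. The RUNX core TGTGGT was likewise in none of them and in 13.1% of all windows. TATAAA was found on the reverse strand only, 1 time in KLRC3 and 2 times in KLRC4, and was in 11.5% of all windows on either strand. A match of letters is a description and no absence of these letters bears on the factors themselves.

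KLRC1 and KLRC2 were measured together, and their probe set stood far higher in Oct4low BCCs than in either other subset. The deposited log2 values of 206785_s_at were 6.62, 6.80, 6.87 and 6.67 in the 4 Oct4low arrays, 4.72 and 4.74 in the 2 Oct4med arrays, and 4.49, 4.51, 4.41 and 4.58 in the 4 Oct4hi arrays. Every Oct4low array was thus above every Oct4med array, and every Oct4med array above every Oct4hi array. The subset means were 6.74 ± 0.11 (SD, n = 4) in Oct4low BCCs, 4.73 ± 0.01 (SD, n = 2) in Oct4med BCCs and 4.50 ± 0.07 (SD, n = 4) in Oct4hi BCCs. The median of an array lay between 5.05 and 5.14 on the log2 scale. Array medians and percentiles are over the 25727 probe sets that are not controls, which the authors had already filtered, and not over the whole array. The KLRC1 and KLRC2 probe set was above that median in the 4 Oct4low arrays, at the 75.5th to 78.4th percentile, and below it in the other 6, at percentiles 41.0 to 42.8 in Oct4med BCCs and 35.3 to 40.0 in Oct4hi BCCs. In sorted bulk RNA, a smaller share of cells with the transcript and less transcript per cell cannot be told apart.

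The difference of 206785_s_at was -2.24 ± 0.07 (log2, SE) between Oct4hi and Oct4low BCCs, a 4.74-fold lower value as normalized by robust multi-array averaging (RMA). It was -2.01 ± 0.06 between Oct4med and Oct4low BCCs, a 4.03-fold lower RMA value, and -0.23 ± 0.03 between Oct4hi and Oct4med BCCs. The Oct4hi and Oct4med values lie below the array median, where background can make up much of an RMA value, so that these folds are folds of RMA values and need not equal those of the transcripts. For the same reason the small step between Oct4hi and Oct4med BCCs gives no order of transcript levels. The first gap between the arrays, from the highest Oct4hi to the lowest Oct4low value, was 2.05 on the log2 scale, and the corresponding gap of Oct4med to Oct4low arrays was 1.89. Between Oct4hi and Oct4med arrays it was 0.15. Most of the distance was therefore between Oct4low BCCs and both other subsets. The comparisons of Oct4hi and of Oct4med with Oct4low BCCs share the same 4 Oct4low arrays. Ranked by its difference between Oct4hi and Oct4low BCCs, this probe set was the most negative of the 25727 probe sets that are not controls, and those of PDE4B (-1.96) and PADI4 (-1.82) came next. Between Oct4med and Oct4low BCCs it held rank 9 from the most negative. Both ranks are of RMA differences and carry the same limit.

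KLRC3 was likewise highest in Oct4low BCCs, with a wider spread between replicates than the probe set of KLRC1 and KLRC2. The log2 values of 207723_s_at were 5.24, 5.68, 5.10 and 5.40 in Oct4low BCCs, 4.42 and 4.56 in Oct4med BCCs, and 4.25, 3.98, 4.18 and 4.16 in Oct4hi BCCs. Again no 2 subsets overlapped. The means were 5.36 ± 0.25 (SD, n = 4) in Oct4low BCCs, 4.49 ± 0.10 (SD, n = 2) in Oct4med BCCs and 4.14 ± 0.12 (SD, n = 4) in Oct4hi BCCs. The Oct4low arrays were close to the array median, at the 50.8th to 60.7th percentile, and all 6 other arrays were below it, at percentiles 34.4 to 39.0 in Oct4med BCCs and 26.5 to 32.5 in Oct4hi BCCs. This probe set and that of KLRC1 and KLRC2 were kept by the authors' filter on background, without a statement of which arrays passed. No background level was estimated here, so that the Oct4med and Oct4hi values were not told from background.

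The difference of 207723_s_at was -1.21 ± 0.14 (log2, SE) between Oct4hi and Oct4low BCCs, a 2.32-fold lower RMA value. Between Oct4med and Oct4low BCCs it was -0.87 ± 0.14, a 1.82-fold lower RMA value. With Oct4hi and Oct4med values below the array median, where background can make up much of an RMA value, these folds need not equal those of the transcript. The RMA values of Oct4hi and Oct4med BCCs differed by -0.35 ± 0.09, which gives no order of transcript levels between them. The gap between the nearest arrays was 0.86 for Oct4hi and Oct4low BCCs, 0.54 for Oct4med and Oct4low BCCs and 0.17 for Oct4hi and Oct4med BCCs.

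**Figure D1:**
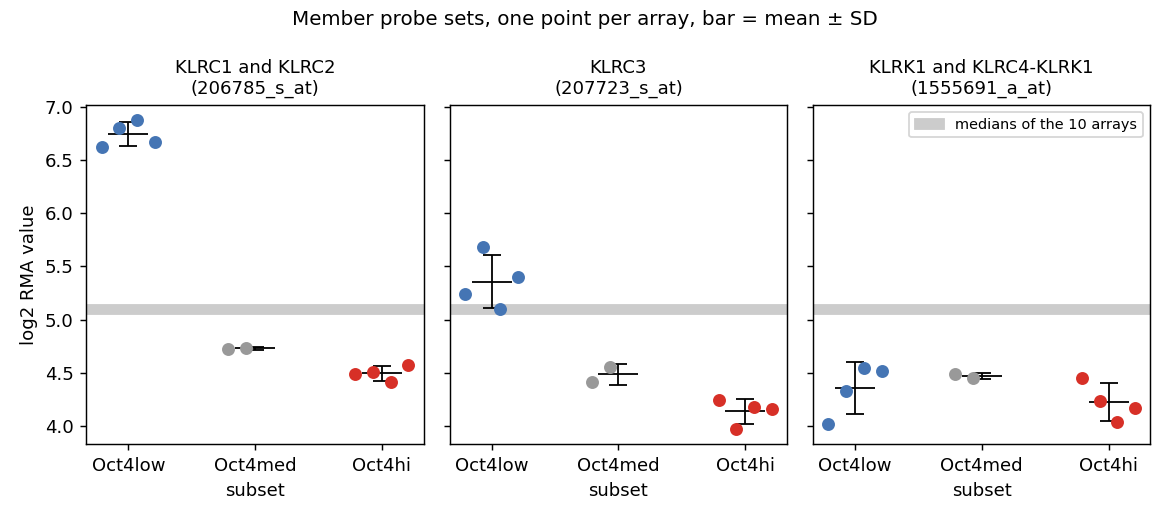
Log2 RMA values (vertical axis) of the 3 member probe sets in the 10 arrays by subset (horizontal axis), 1 point per array, with the mean and SD as black bars and the range of the array medians as a grey band. The KLRC1 and KLRC2 probe set lay between 6.62 and 6.87 in Oct4low BCCs and at or below 4.74 elsewhere, KLRC3 was also highest in Oct4low BCCs, and the KLRK1 probe set lay under the band in every array.

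KLRK1, the gene of NKG2D, did not share this pattern. The log2 values of 1555691_a_at were 4.02, 4.33, 4.55 and 4.52 in Oct4low BCCs, 4.49 and 4.45 in Oct4med BCCs, and 4.46, 4.24, 4.04 and 4.18 in Oct4hi BCCs. The values of each pair of subsets overlapped, and all 10 were below the median of their array. The means were 4.36 ± 0.24 (SD, n = 4) in Oct4low BCCs, 4.47 ± 0.03 (SD, n = 2) in Oct4med BCCs and 4.23 ± 0.17 (SD, n = 4) in Oct4hi BCCs. The differences were -0.13 ± 0.15 (log2, SE) between Oct4hi and Oct4low BCCs, 0.11 ± 0.12 between Oct4med and Oct4low BCCs, and -0.24 ± 0.09 between Oct4hi and Oct4med BCCs. The probe set was kept by the authors' filter on background, but which arrays they scored above background is not given. No background level was estimated here, so that in a given array a KLRK1 transcript was not told from background.

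Set side by side, the SD of the 3 subset means was 1.23 for the KLRC1 and KLRC2 probe set, 0.63 for KLRC3 and 0.12 for KLRK1 (log2), against a pooled SD within subsets of 0.087, 0.18 and 0.20. The KLRK1 subsets thus differed by less than their replicates did. Over the 10 arrays the mean-centred profiles of the KLRC1 and KLRC2 probe set and of KLRC3 differed by a root mean square of 0.55, where their own root mean squares were 1.07 and 0.57. Probes of either set could bind transcripts of the other copies, and the part of such shared binding in the common pattern was not tested. For the tests on other genes, probe sets at or above the array median in at least 2 arrays were kept, 13883 in all. Of the 3 member probe sets 2 passed, both through the 4 Oct4low arrays in which they were high, and the KLRK1 probe set did not. Non-overlap of the kind seen for both KLRC probe sets, with every Oct4hi array below every Oct4low array, was found for 15.2% of the tested probe sets, and the corresponding share was 25.1% for Oct4med below Oct4low arrays and 18.2% for Oct4hi below Oct4med arrays.

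**Figure D2:**
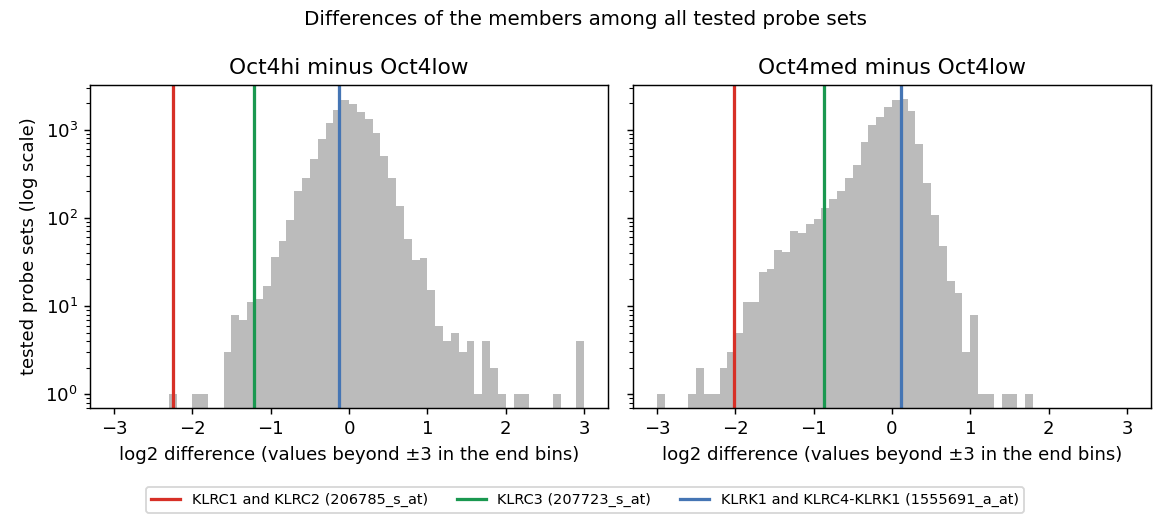
Number of tested probe sets (vertical log axis) by log2 difference (horizontal axis, bins of 0.1) for Oct4hi minus Oct4low BCCs on the left and Oct4med minus Oct4low BCCs on the right, with coloured lines at the 3 member probe sets. The line of KLRC1 and KLRC2 is at -2.24 on the left and -2.01 on the right, KLRC3 is at -1.21 and -0.87, and KLRK1, which was not among the tested probe sets, is near 0.

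The profiles most like those of the KLRC probe sets over the 10 arrays were those of PADI4 and EREG for KLRC1 and KLRC2 and of SLCO4A1 and EDIL3 for KLRC3. Likeness was the root mean square difference of mean-centred log2 values, with the 5 nearest single-symbol probe sets named. For KLRC1 and KLRC2 the nearest was PADI4, a peptidylarginine deiminase, at 0.29, with log2 means of 8.11 (Oct4low), 6.85 (Oct4med) and 6.29 (Oct4hi). EREG, which encodes the EGFR ligand epiregulin, followed at 0.35 with means of 7.13, 5.59 and 5.60 in the same order. The remaining places, at 0.48 to 0.49, were held by 3 probe sets of FN1, the gene of fibronectin, with means of 12.51 to 12.72 in Oct4low BCCs and 11.05 to 11.27 in Oct4hi BCCs. For KLRC3 the nearest were SLCO4A1, an organic anion transporter, at 0.17, EDIL3, an integrin ligand of the extracellular matrix, at 0.17, and FAM20C, a kinase of secreted proteins, at 0.18. SOX4, a transcription factor, and NR4A2, an orphan nuclear receptor, were at 0.19 each. SLCO4A1 had log2 means of 8.17 (Oct4low), 7.58 (Oct4med) and 7.11 (Oct4hi), and NR4A2 had 6.74, 5.72 and 5.72. All of these were chosen for their likeness and get no test.

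By their brightest probe sets, none of the 5 tested signalling genes of the NKG2 receptors was called lower in either other subset than in Oct4low BCCs. The partner gene KLRD1 was below the filter and was not tested for the pattern. KLRD1, whose product CD94 pairs with the NKG2A, NKG2C and NKG2E proteins, had log2 values of 4.25 to 4.68 in Oct4low BCCs, 4.35 to 4.66 in Oct4med BCCs and 4.07 to 4.64 in Oct4hi BCCs, all below the array median. Of 20 partner, adaptor and signalling genes listed, 10 had a single-symbol probe set and 5 passed the filter, with the brightest probe set standing for each gene. HCST, TYROBP (the adaptor DAP12 of NKG2C) and KLRC4 were not analysed here. In the limma fit, 4 of the 5 rose in Oct4hi against Oct4low BCCs and none fell, where 34.8% of all tested probe sets changed (18.2% higher, 16.7% lower). PTPN11, the phosphatase SHP-2 that binds inhibitory receptors, rose by 0.67 ± 0.16 (log2, SE, limma adjusted p = 0.00728), a call lost by the methods' t-test, run on the same values (0.0583). PIK3R1, a regulatory subunit of phosphoinositide kinase, rose by 0.53 ± 0.12 (adjusted p = 0.00511). PLCG2, a phospholipase downstream of activating receptors, rose by 0.35 ± 0.07 (adjusted p = 0.00193), and FYN, a Src family kinase, rose by 0.32 ± 0.08 (adjusted p = 0.0112). The median difference of the 5 genes was 0.35, beside -0.0045 for all tested probe sets. These are general signalling genes that epithelial cells also use. A dimmer FYN probe set, 243006_at, had the opposite sign, at -0.36 (adjusted p = 0.0222).

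In Oct4med against Oct4low BCCs, where 20.6% of all tested probe sets changed (5.19% higher, 15.5% lower), 1 of the 5 signalling genes rose and none fell. That was PTPN11, by 0.63 ± 0.20 (limma adjusted p = 0.0423). Leaving out any 1 of 6 arrays ended this call (Oct4low replicates 2, 3 and 4, both Oct4med arrays, or Oct4hi replicate 2), with adjusted p between 0.0524 and 0.211, as did the methods' t-test (0.219). In Oct4hi against Oct4med BCCs, where 26.7% changed (18.1% higher, 8.6% lower), PLCG2 rose by 0.41 ± 0.08 (adjusted p = 0.00368) and the other 4 did not pass. VAV2, a guanine nucleotide exchange factor, passed in no comparison, with differences of 0.05 in Oct4hi against Oct4low BCCs, 0.17 in Oct4med against Oct4low BCCs and -0.12 in Oct4hi against Oct4med BCCs.

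Among the ligands, genes that supply HLA-E with peptides differed in small steps, and the single probe set of B2M had the largest change. HLA-E itself has no single-symbol probe set in the deposited table, which the authors had filtered, and was not analysed here. Of 14 genes listed for HLA-E and its peptides 8 had a probe set and 7 were tested. Against Oct4low BCCs, 3 of the 7 fell in Oct4hi BCCs and none rose, where 16.7% of all tested probe sets fell and 18.2% rose. TAPBP, which encodes tapasin of the peptide loading complex, had means of 9.69 ± 0.03 in Oct4hi BCCs and 9.95 ± 0.04 in Oct4low BCCs (log2, SD, n = 4 each), a difference of -0.26 ± 0.06 (SE, limma adjusted p = 0.00728). The peptide trimming enzymes ERAP1 (-0.28 ± 0.09, adjusted p = 0.0266) and ERAP2 (-0.32 ± 0.10, adjusted p = 0.0276) also fell. The ERAP1 call was lost without Oct4low replicate 3 or 4 or Oct4hi replicate 1 or 3 (adjusted p = 0.0556 to 0.067), and the ERAP2 call without Oct4low or Oct4hi replicate 1, 2 or 3 (0.0541 to 0.0751). Shifting all arrays to a common median and the methods' t-test ended both calls as well (0.062 to 0.0849), and no filter on low values ended that of ERAP1 (0.0539). A dimmer ERAP1 probe set, 209701_at, rose by 0.38 (adjusted p = 0.00832). The single tested probe set of B2M, the light chain of HLA class I, stood at 6.32 ± 0.08 in Oct4low BCCs (log2, SD, n = 4), 5.39 ± 0.18 in Oct4med BCCs (n = 2) and 6.29 ± 0.33 in Oct4hi BCCs (n = 4). It is the only single-symbol probe set of B2M in the filtered table. Whether it follows the bulk of B2M transcript was not tested. B2M fell by 0.93 ± 0.17 in Oct4med against Oct4low BCCs (adjusted p = 0.00237), the 1 call of 7 there, and rose by 0.90 ± 0.17 in Oct4hi against Oct4med BCCs (adjusted p = 0.00263). In that last comparison TAPBP fell by 0.27 ± 0.08 (adjusted p = 0.0247), a call lost without Oct4med replicate 1 (adjusted p = 0.169) or Oct4hi replicate 1 (0.0569), with no filter (0.0901) and with a common median (0.0775). The B2M call of that comparison was lost by the methods' t-test (0.109).

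Of 8 ligands of NKG2D listed, RAET1E alone had a single-symbol probe set here. Its log2 values were 5.57 to 6.31 in Oct4low BCCs, 6.45 to 6.48 in Oct4med BCCs and 6.02 to 6.17 in Oct4hi BCCs. RAET1E rose by 0.56 ± 0.16 in Oct4med against Oct4low BCCs (limma adjusted p = 0.0262). The call was lost without Oct4low replicate 3 (adjusted p = 0.0627), Oct4med replicate 1 (0.122) or Oct4med replicate 2 (0.0832), and by the methods' t-test (0.238). Its differences were 0.21 ± 0.13 in Oct4hi against Oct4low BCCs (adjusted p = 0.222) and -0.35 ± 0.16 in Oct4hi against Oct4med BCCs (adjusted p = 0.118). MICA, MICB and the ULBP genes were not analysed here.

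Transcription factors of NK cell development changed in both directions. Of 18 genes listed, 15 had a probe set and 10 were tested. In Oct4hi against Oct4low BCCs 2 rose and 4 fell, where 18.2% of all tested probe sets rose and 16.7% fell. GATA3, also a luminal breast factor, was at 6.71 to 7.08 in Oct4hi BCCs, against 7.53 to 7.72 in Oct4low BCCs, and fell by 0.76 ± 0.09 (log2, SE, limma adjusted p = 7.27e-05). TOX2, a high mobility group factor, fell by 0.60 ± 0.06 (adjusted p = 3.09e-05). NFIL3, needed for NK cell precursors in mice, fell by 0.23 ± 0.07 (adjusted p = 0.0174), and its call was lost without Oct4low replicate 2 (adjusted p = 0.052), with no filter (0.0634) and with a common median (0.0664). FOXO1 fell by 0.25 ± 0.08 (adjusted p = 0.032), a call lost without Oct4low replicate 2 or 3 or Oct4hi replicate 1 or 4 (0.0783 to 0.0921), with no filter (0.0714), with a common median (0.0848) and by the methods' t-test (0.0628). ID2, an inhibitor of E proteins, rose by 0.56 ± 0.10 (adjusted p = 0.00164) and ETS1 rose by 0.32 ± 0.07 (adjusted p = 0.00525).

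ID2 had the largest steps of the list and set Oct4med BCCs apart. Its log2 values were 8.13 to 8.43 in Oct4low BCCs, 6.98 to 7.12 in Oct4med BCCs and 8.61 to 9.07 in Oct4hi BCCs. ID2 fell by 1.27 ± 0.13 in Oct4med against Oct4low BCCs (limma adjusted p = 3.84e-05) and rose by 1.82 ± 0.13 in Oct4hi against Oct4med BCCs (adjusted p = 1.59e-06). Against Oct4low BCCs, 1 of the 10 factors rose in Oct4med BCCs and 3 fell, where 5.19% of all tested probe sets rose and 15.5% fell. NFIL3 fell by 0.44 ± 0.08 (adjusted p = 0.00243). Weaker calls were those of GATA3, at -0.38 ± 0.11 (adjusted p = 0.0285), and TOX, at 0.31 ± 0.09 (adjusted p = 0.0351). The GATA3 call was lost without Oct4low replicate 1 or 2 or either Oct4med array (adjusted p = 0.0549 to 0.175), and that of TOX without Oct4low replicate 2 or 4 or either Oct4med array (0.0689 to 0.138). No filter ended both calls too (0.0552 for GATA3, 0.0819 for TOX), as did quantile normalization (0.0516) and the methods' t-test (0.0655) for GATA3 and a common median (0.062) for TOX. In Oct4hi against Oct4med BCCs, where 18.1% of all tested probe sets rose and 8.6% fell, 2 rose (ID2 and ETS1) and 3 fell (TOX, TOX2 and GATA3). There TOX2 fell by 0.45 ± 0.06 (adjusted p = 0.00158). Calls of ETS1 (0.36 ± 0.09), TOX (-0.37 ± 0.09) and GATA3 (-0.38 ± 0.11) were each lost without Oct4med replicate 1 (adjusted p = 0.134, 0.0563 and 0.0666), and those of TOX and GATA3 also without Oct4med replicate 2 (0.0624 and 0.0982) and by the methods' t-test (0.0931 and 0.13). Renewed quantile normalization ended that of ETS1 (0.0522). The factors T-bet (TBX21) and EOMES, which mark mature NK cells, were below the filter, at means of 4.75 and 3.78 in Oct4hi BCCs and 4.60 and 3.73 in Oct4low BCCs. Dimmer probe sets disagreed for 2 factors not called by their brightest one. For PRDM1, 228964_at differed by -0.83 (adjusted p = 0.000711) in Oct4hi and by -0.71 (0.00972) in Oct4med against Oct4low BCCs. For IKZF1, 1565817_at differed by -0.78 (0.000415) in Oct4med against Oct4low BCCs and by 0.78 (0.000395) in Oct4hi against Oct4med BCCs.

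**Figure D3:**
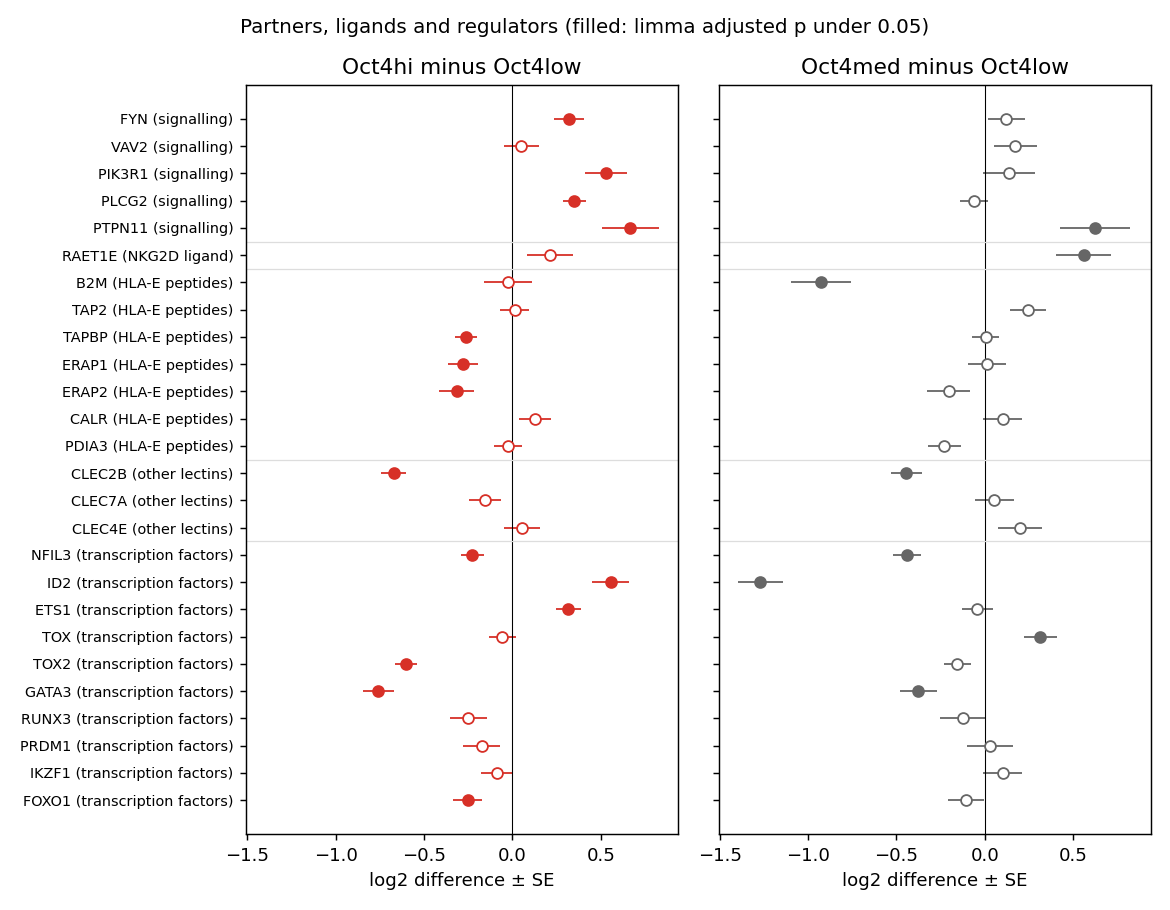
Log2 difference with its SE (horizontal axis) for the tested signalling, ligand, lectin and transcription factor genes (rows), Oct4hi minus Oct4low BCCs on the left and Oct4med minus Oct4low BCCs on the right, filled where limma's adjusted p was under 0.05. Of the 5 signalling genes, 4 are filled on the right side of 0 for Oct4hi minus Oct4low BCCs, and ID2 lies at 0.56 there and at -1.27 for Oct4med minus Oct4low BCCs.

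Other lectin-like genes were mostly below the filter. Of 23 relatives listed, 13 had a probe set and 3 passed the filter. CLEC2B, which encodes AICL, the ligand of the NK receptor NKp80, and lies in the same gene complex, was highest in Oct4low BCCs. Its log2 values were 8.56 to 8.71 in Oct4low BCCs, 8.12 to 8.25 in Oct4med BCCs and 7.92 to 8.04 in Oct4hi BCCs. CLEC2B fell by 0.67 ± 0.07 in Oct4hi against Oct4low BCCs (limma adjusted p = 3.97e-05) and by 0.44 ± 0.09 in Oct4med against Oct4low BCCs (adjusted p = 0.0042), and the call for Oct4med BCCs was lost without Oct4med replicate 1 (adjusted p = 0.0506). Its difference between Oct4hi and Oct4med BCCs was -0.23 ± 0.09 (adjusted p = 0.0724). CLEC7A and CLEC4E passed the test in no comparison.

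None of the tested genes around the KLRC cluster was called lower in both other subsets than in Oct4low BCCs. The nearest tested, GABARAPL1 and MAGOHB, were gene 8 on their side. GABARAPL1 had its highest mean in Oct4low BCCs (log2 7.56, against 7.12 in Oct4med and 7.39 in Oct4hi BCCs). In the reference gene order, the 15 genes on each side of the cluster held 11 genes with a probe set, of which 5 were tested. In Oct4hi against Oct4low BCCs, 3 of the 5 rose and none fell, with a median of 0.32. Of all tested probe sets 18.2% rose and 16.7% fell there, with a median of -0.0045. STYK1, a kinase-like membrane protein, rose by 0.64 (log2, limma adjusted p = 0.00145), MAGOHB, of the exon junction complex, by 0.36 (adjusted p = 0.0125) and YBX3, a cold shock domain protein, by 0.32 (adjusted p = 0.0102). In Oct4med against Oct4low BCCs, where 5.19% of all tested probe sets rose and 15.5% fell, none rose and 2 fell. These were STYK1 by 0.46 (adjusted p = 0.0369) and the autophagy gene GABARAPL1 by 0.44 (adjusted p = 0.00893). The STYK1 call there was lost without Oct4low replicate 2, 3 or 4 or either Oct4med array (adjusted p = 0.0697 to 0.213), and that of GABARAPL1 without Oct4med replicate 1 (0.0738). The methods' t-test ended both (0.111 for STYK1, 0.101 for GABARAPL1), and no filter that of STYK1 (0.0507). STYK1 rose by 1.10 in Oct4hi against Oct4med BCCs (adjusted p = 0.000216). MAGOHB also rose there, by 0.41 (adjusted p = 0.0253), and lost the call without Oct4med replicate 1 (0.319) or Oct4hi replicate 2 (0.0587), with quantile normalization (0.0776) and by the methods' t-test (0.121). The closest measured genes on either side, KLRD1 and KLRA1P, were below the filter in all subsets, so that they were not tested for the pattern.

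**Figure D4:**
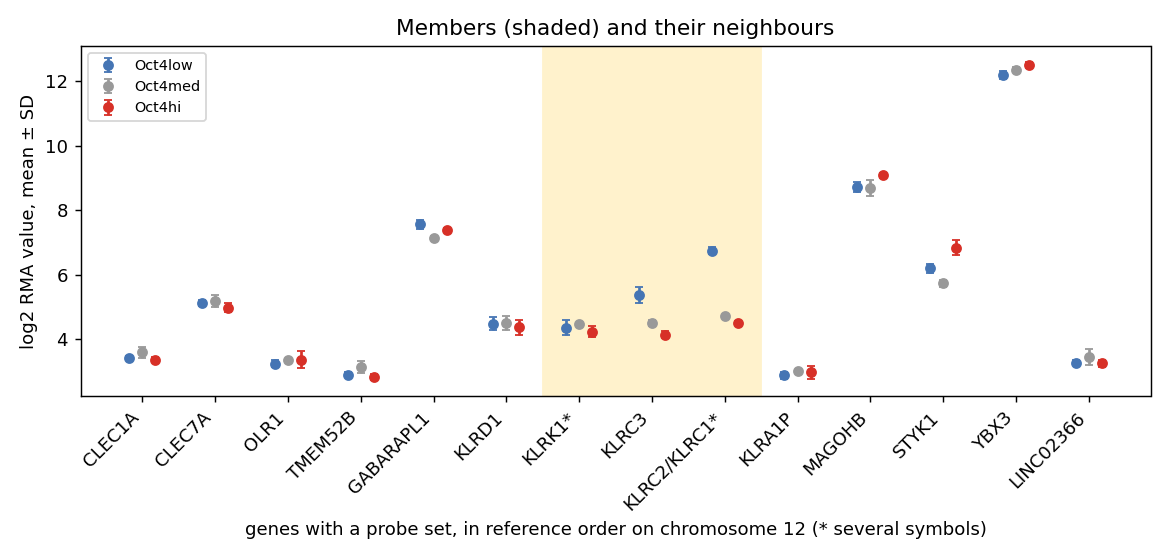
Log2 RMA values (vertical axis, mean with SD by subset) of the members, shaded, and of the 11 neighbouring genes with a probe set, in reference order on chromosome 12 (horizontal axis, not to scale). Oct4low BCCs stand above both other subsets at the KLRC1 and KLRC2 probe set (6.74) and at KLRC3 (5.36), while the subset means of KLRD1 differ by at most 0.14 among themselves.

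Markers of NK and T cells were checked because the KLRC genes are known from those cells. Of 26 markers listed, 21 had a probe set and 14 were tested. The sum of the 21 on the linear scale was 1919.9 to 1971.9 in Oct4low arrays, 2105.9 to 2256.7 in Oct4med arrays and 1990.8 to 2121.6 in Oct4hi arrays, so that it was lowest in the subset where the KLRC probe sets were highest. IL2RB and CST7 made up most of this sum, and without them it was 656.2 to 724.4 in Oct4low arrays, 745.9 to 791.5 in Oct4med arrays and 693.8 to 789.1 in Oct4hi arrays. The part of such cells in the KLRC difference was not tested. PTPRC, the pan-leukocyte antigen CD45, had log2 means of 3.19 (Oct4low), 3.16 (Oct4med) and 3.09 (Oct4hi), near the low end of the arrays, and the granzyme gene GZMB had 3.92, 3.99 and 3.94 in that order. None of the 21 markers was at a value of 0, since RMA values on the log2 scale stay above it. In Oct4hi against Oct4low BCCs, 3 of the 14 rose and none fell, where 18.2% of all tested probe sets rose and 16.7% fell. They were CD8A by 0.50 (limma adjusted p = 0.00356), CST7 by 0.49 (adjusted p = 0.000431) and CCL5 by 0.34 (adjusted p = 0.00835). CD8A passed the filter only through the 4 Oct4hi arrays in which it was high, so that its calls carry that selection. In Oct4med against Oct4low BCCs CST7 fell by 0.58 (adjusted p = 0.000781), while IL2RB rose by 0.30 (adjusted p = 0.018) and CD247 by 0.30 (adjusted p = 0.0493). The IL2RB call was lost without Oct4med replicate 1 (adjusted p = 0.123) and with no filter (0.0645). The CD247 call was lost at 13 of 16 alternatives (0.0516 to 0.378), 8 of them the omission of 1 array. In Oct4hi against Oct4med BCCs CST7 rose by 1.07 (adjusted p = 7.7e-06) and CD8A by 0.63 (adjusted p = 0.00431), and IL2RB fell by 0.33 (adjusted p = 0.00929), a call lost without Oct4med replicate 1 (0.0917). The methods' t-test ended that CD8A call (0.0924).

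The labelled cell line was checked against its markers. Of 10 basal and mesenchymal breast markers, 9 had a probe set and 7 were tested, among them CAV1 at log2 means of 12.40 (Oct4low), 12.26 (Oct4med) and 12.04 (Oct4hi) and ANXA1 at 12.85, 12.63 and 12.20 in the same order. The probe set given for VIM, an _x_at set, was below the filter at 3.96, 3.75 and 4.04, and it is the single one named for this gene here. MSN was also below the filter, at 4.92, 5.18 and 4.90, while EGFR passed it at 5.79, 6.15 and 5.89. Against Oct4low BCCs, 4 of the 7 fell in Oct4hi BCCs and none rose, where 16.7% of all tested probe sets fell and 18.2% rose. In Oct4med BCCs, where 5.19% of all rose and 15.5% fell, 2 rose (EGFR and PLAU) and 2 fell (CAV2 and LOX). Without Oct4med replicate 1 each of these 4 calls was lost (adjusted p = 0.226, 0.148, 0.306 and 0.124 in that order). Of 13 luminal markers 8 had a probe set and 6 were tested, with 3 lower and none higher in Oct4hi against Oct4low BCCs and 2 lower in Oct4med against Oct4low BCCs. The luminal markers CDH1 and PGR were below the filter, while EPCAM (7.90, 7.87 and 8.08) and MLPH (9.24, 9.11 and 8.37) were not. ESR1, GATA3, ERBB3 and TFF1 also passed the filter. Across all tested probe sets, Pearson's r was 0.987 to 0.994 between arrays of a subset and 0.957 to 0.981 between subsets, so that no array stood apart from its own subset.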

How the data were processed

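Total RNA (100 ng per array) of sorted MDA-MB-231 BCCs was hybridized to Affymetrix U133 Plus 2.0 arrays. Per the paper, the authors corrected the background, RMA normalized and log2-transformed the intensities and filtered the features. They kept features that changed 1.2-fold or more in 20% of samples or more. Features at background level in 50% of samples or more were dropped. Ranks, percentiles, array medians and shares given here are thus over a set already selected for signal and for change. All 3 member probe sets are in that set, but the arrays in which they were scored above background are not given. A gene without a probe set here may have been removed by that filter. The deposited values are log2 intensities of 25750 probe sets, and RMA is the tool named in the submitters' processing notes. The aligner of probes and the genome build are not given in the sources used here. The paper names 4 experiments, so that replicates are separate preparations of 1 line. A p-value here covers no more than the variation among these preparations, and precision is limited by how few arrays there are.

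After 23 control probe sets were left out, 13883 of 25727 probe sets were at or above the array median in at least 2 arrays and were tested. All 10 arrays entered a single limma 3.58.1 fit (R 4.3.3) with 3 subset means, tested two-sided, with Benjamini-Hochberg adjustment over the tested probe sets and a threshold of 0.05. The script was tested on simulated data. In the platform annotation 18682 probe sets had 1 symbol, 799 several and 6246 none, and these may be outdated. For other genes the brightest single-symbol probe set was used.

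The members and the 8 gene lists were chosen with earlier results of these data known. The genes named are the members, in each list up to 6 genes called in at least 1 comparison, the measured ligands, and the 5 nearest profiles of a KLRC probe set. The breast marker lists are given by counts and by examples chosen after their values were seen, as are VAV2, CLEC7A, CLEC4E, TBX21, EOMES, PTPRC, GZMB, PRF1, NCAM1 and the dimmer probe sets of PRDM1 and IKZF1. Promoter windows were aligned with Biopython 1.88. Alternatives were no filter, a filter at the 75th percentile, renewed quantile normalization, a common median, the replicate number as a block, the methods' t-test, omission of _x_at and _s_at probe sets, and leaving out each array. The methods' t-test was a plain t-test with pooled variance and the adjustment and threshold of the limma fit. It lacked the random variance model of the paper's own t-test.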

Additional observations from a re-analysis of the deposited data

Results flagged for a closer look

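In 118 groups of 4 arrays (59 probe sets of members, listed and neighbouring genes in Oct4hi and in Oct4low BCCs), 10 held 1 array whose gap to the next was more than 0.829 of the group's range, where chance gives about 1 in 20. None was a member probe set. All values are log2. FYN was at 7.40 in Oct4low replicate 1, against 7.69 to 7.74 in the other Oct4low arrays. PIK3R1 was at 6.85 in Oct4hi replicate 3, against 7.15 to 7.20 in its group. CALR, a chaperone of HLA class I, was at 7.87 in Oct4hi replicate 2, against 7.51 to 7.56. CLEC4E was at 5.87 in Oct4low replicate 3, against 5.99 at the lowest of the other Oct4low arrays. CD247 was low in 2 groups, at 5.70 in Oct4low replicate 3 against 5.81 to 5.83, and at 5.75 in Oct4hi replicate 4 against 5.96 to 5.98. PRDM1 was at 6.43 in Oct4low replicate 4, against 6.21 to 6.24, and IKZF1 at 7.23 in Oct4hi replicate 3, against 7.04 to 7.07. LOX was at 8.90 in Oct4low replicate 2, against 8.99 in the others. STYK1 was at 6.49 in Oct4hi replicate 3, against 6.93 to 6.96.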

How the results depend on the processing

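The differences of the 3 member probe sets kept their direction, and moved by less than the spread between replicates, under quantile normalization, a common median, the replicate block and omission of each array. Without 1 array the Oct4hi minus Oct4low difference was -2.28 to -2.20 for KLRC1 and KLRC2, -1.30 to -1.11 for KLRC3 and -0.24 to -0.07 for KLRK1. The Oct4med minus Oct4low difference was -2.05 to -1.97, -0.95 to -0.76 and 0.0013 to 0.18, and the Oct4hi minus Oct4med difference -0.26 to -0.21, -0.42 to -0.28 and -0.32 to -0.18. The replicate block moved the KLRK1 differences to 0.29 (Oct4med minus Oct4low, 0.11 without it) and -0.12 (Oct4hi minus Oct4med, -0.24 without it).

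Probe sets called in Oct4hi against Oct4low BCCs numbered 4837, or 3123 without _x_at and _s_at probe sets (9396 tested), and 3781 to 5027 without 1 array. In Oct4med against Oct4low BCCs they were 2865, or 1552 with the replicate block, 1109 by the methods' t-test and 1519 (without Oct4med replicate 1) to 2797 without 1 array. In Oct4hi against Oct4med BCCs they were 3710, or 2232 with the block, 1866 by the t-test, 2438 without _x_at and _s_at probe sets, and 1430 (without Oct4med replicate 1) to 3871 without 1 array. The shares of higher and lower calls moved with the scaling. After renewed quantile normalization 1375 were higher and 1805 lower in Oct4med against Oct4low BCCs (720 and 2145 as deposited), and 1719 higher and 1619 lower in Oct4hi against Oct4med BCCs (2516 and 1194 as deposited). The cause was not tested where the number tested was equal.

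Arrays of the same number did not regularly deviate together, with r of -0.21 to 0.28 between 4 pairs of Oct4hi and Oct4low arrays and 1 of 4 over 0.1. Pairs of different numbers ranged more widely. Their r went from -0.31 (Oct4low replicate 1 with Oct4hi replicate 4) to 0.41 (Oct4low replicate 2 with Oct4hi replicate 4). Whether arrays of the same number share an experiment was not tested, so the block may not group arrays of 1 experiment. The block gave 4435 calls in Oct4hi against Oct4low BCCs. Of 64 calls of listed and neighbouring genes, 33 were kept at every setting and 31 were lost at 1 or more, 21 of them with the block, and none was reversed. The block ended the Oct4med against Oct4low calls of PTPN11, RAET1E, CD247, IL2RB, TOX, GATA3, GABARAPL1, STYK1, CAV2, EGFR, LOX and PLAU (adjusted p = 0.0529 to 0.177), and the Oct4hi against Oct4med calls of TAPBP, ETS1, TOX, GATA3 and MAGOHB (0.0506 to 0.0787), among others. Signals below the array median limit what can be read for KLRK1, KLRD1 and, outside Oct4low BCCs, the KLRC probe sets.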
